A study of Mus musculus with 3 samples.

Results

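The tripartite motif (Trim) genes were described in RNA from mouse macrophages taken 480 minutes into an inflammatory stimulus. A gene was counted as a member when its symbol was Trim followed by a number, with or without a lower-case letter, and the annotation gave it at least 1 protein-coding transcript. No expression threshold was used. The rule found 68 genes among 55536 gene entries, of which 22028 were protein-coding. All 3 libraries belonged to 1 group: primary macrophages derived from C57BL/6J bone marrow, given 100 ng/mL of a stimulus, with poly(A) RNA sequenced from whole-cell extract. The sample descriptions name the stimulus as Lipid A, the part of bacterial lipopolysaccharide that Toll-like receptor 4 recognises, whereas the treatment fields say lipoprotein A. The labels give each library its own biosample and a biological replicate number but the same donor entry, and neither sex nor age was recorded. The tests of spread below therefore cover only these 3 libraries. No unstimulated library was analysed here, so every value is a level after stimulation and says nothing of a change from rest.

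TRIM proteins carry a RING domain, 1 or more B-box zinc fingers and a coiled coil, in that order, and most act as ubiquitin ligases through the RING domain. The domain that follows the coiled coil differs between members and sorts them into subfamilies. In the most common of these it is a PRY-SPRY domain, which binds targets such as viral capsids, antibody or other signalling proteins. In macrophages several members are known as interferon-induced genes that restrict viruses or tune signalling from RIG-I-like and Toll-like receptors.

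Because interferon-induced members stood at the top of the family, promoters were read, with these levels known, for the core of the interferon-stimulated response element, the site of interferon-regulatory and STAT factor complexes. RefSeq promoter windows (GRCm38.p6, 250 bases before the start and 50 bases from it) matched 53 of the 68 members by symbol. The letters searched were GAAANNGAAA on both strands, and overlapping matches were allowed. The core was found in 9 of the 53 Trim genes (16.98%), against 4.02% of 16522 protein-coding genes and 3.44% of all 32851 windows. It was present in 8 of 24 members detected in every library (33.3%) and in 1 of 29 members that were not (3.45%), Trim2. The 8 are not independent, because Trim30a and Trim30d, and Trim5, Trim12a and Trim12c, have related windows. The share among detected protein-coding genes was not computed. Trim30c, Trim25 and Trim30b, at means of 289.8, 146.2 and 47.6 TPM, had windows without the core. The upstream part of the Trim30b window, chr7:104358647-104358896, lies inside the annotated gene, chr7:104355382-104369884 on the minus strand. The annotated 5′ end of Trim30b was therefore not searched. The windows of the 8 detected genes are shown because they hold the shared letters. Each is read 5′ to 3′ on the gene's strand, with the matching letters in capitals.
Trim30a, chr7:104465210-104465239, minus strand: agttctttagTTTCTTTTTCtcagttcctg
Trim30d, chr7:104507871-104507900, minus strand: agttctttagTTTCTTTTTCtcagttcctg
Trim12a, chr7:104315466-104315495, minus strand: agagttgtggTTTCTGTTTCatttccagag
Trim5, chr7:104288136-104288165, minus strand: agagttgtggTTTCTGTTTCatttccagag
Trim12c, chr7:104353359-104353388, minus strand: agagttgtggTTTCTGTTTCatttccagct
Trim34a, chr7:104244457-104244486, plus strand: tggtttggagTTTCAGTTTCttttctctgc
Trim21, chr7:102565447-102565476, minus strand: ctgagagGAAACTGAAAGTGAAAtttggac
Trim26, chr17:36836979-36837008, plus strand: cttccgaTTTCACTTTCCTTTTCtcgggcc

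With the RefSeq start base counted as 0, the core lay at -36 to -27 in Trim30a, at -41 to -32 in Trim30d, at -49 to -40 in Trim5 and at -29 to -20 in Trim12c. It lay at 10 to 19 in both Trim12a and Trim34a, just inside the RefSeq transcript. In the annotation used for the levels, Trim12a begins at chr7:104315466 on the minus strand, so its core lies before that start. Trim21 at 13 to 28 and Trim26 at -160 to -145 each held 2 overlapping matches. A second annotated start of Trim30a had a further match. The 2 neighbours Trim30a and Trim30d shared more than the core, since their 300-base windows were 90.8% identical in a global alignment. The 150 bases upstream of each start are shown for this pair, with the core in capitals.
Trim30a, chr7:104465194-104465343, minus strand: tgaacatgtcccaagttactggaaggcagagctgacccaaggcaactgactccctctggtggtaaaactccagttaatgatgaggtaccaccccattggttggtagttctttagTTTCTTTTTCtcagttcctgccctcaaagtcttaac
Trim30d, chr7:104507850-104507999, minus strand: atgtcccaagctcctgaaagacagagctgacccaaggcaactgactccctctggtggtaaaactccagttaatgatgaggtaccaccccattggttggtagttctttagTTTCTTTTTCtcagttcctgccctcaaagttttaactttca

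The windows of Trim5 and Trim12a aligned over 241 bases with 0 mismatches, but their annotated starts are offset, so that gaps brought the identity over the whole alignment to 67.1%. Trim5 and Trim12c had 82.8% identical windows, Trim12a and Trim12c 72.9%, and Trim34a and Trim34b 52.2%. The last value is close to the 49.3% of Trim21 and Trim25, which lie on different chromosomes. The gamma-activated site TTCNNNGAA, which reads the same on both strands, was in 6 of the 53 Trim windows (11.3%) against 9.02% of protein-coding genes. Among detected members only Trim30c held it. These letters are a description of sequence, and factor binding was not measured.

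The depth was 26589042, 34344922 and 48356527 expected counts in replicates 1, 2 and 3. The 68 Trim genes held 0.331%, 0.323% and 0.338% of them, with 95% Wilson intervals of 0.329 to 0.333, 0.321 to 0.325 and 0.336 to 0.340, which cover counting error only. All 8 macrophage markers examined were detected, led by the lysozyme gene Lyz2 at 15717, 10767 and 12262 TPM (a length-corrected share of all transcripts). The 8 neutrophil markers summed to 22.9, 421.05 and 21.36 TPM, and each of the 8 was highest in replicate 2. No epithelial marker had a count, and the T cell markers summed to at most 0.82 TPM. Replicate 2 therefore carried more neutrophil transcripts than the others.

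Detection was taken as at least 1 TPM in all 3 libraries. In these macrophages 32 of the 68 Trim genes (47.1%) were detected, beside 42.0% of protein-coding genes. Levels within the family were spread widely: 7 members averaged 100 TPM or more, 13 lay between 10 and 100, 14 between 1 and 10, and 19 below 1 with some counts. The other 15 had no count in any library. The median over all 68 members was 0.998 TPM, against 0.267 TPM over protein-coding genes, and the detected members had a median of 14.9 TPM, against 14.9 TPM for detected protein-coding genes. In RNA from a culture, fewer cells of a type and less RNA per cell cannot be told apart.

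**Figure D1:**
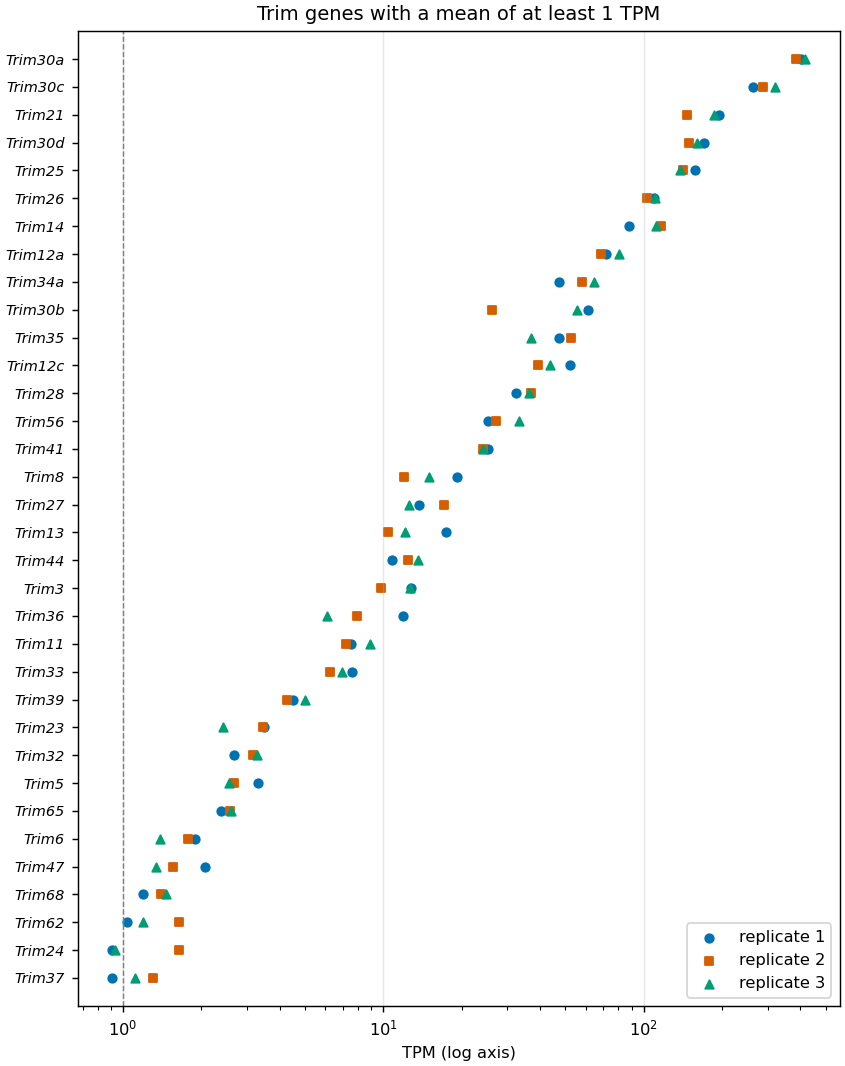
TPM in each of the 3 libraries (log axis) for the 34 Trim genes with a mean of at least 1 TPM, 1 row per gene from the highest mean down. The dashed line marks 1 TPM, and only Trim24 and Trim37 have a library to its left.

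The 5 members of highest level held 63.3%, 62.6% and 63.2% of the family's summed TPM in replicates 1, 2 and 3. First was Trim30a, which in mice dampens Toll-like receptor signalling by removing the TAB adaptor proteins of the TAK1 kinase. It stood at 401.47, 386.62 and 416.7 TPM (401.6 ± 15.0, SD, n = 3), a narrow range. Its neighbour Trim30c followed at 262.2, 287.31 and 319.94 TPM (289.8 ± 29.0). The order of these 2 was the same in every library, with a mean log2 difference of 0.47 ± 0.12 between them.

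Trim21, the cytosolic antibody receptor that sends antibody-coated viruses for degradation, lies at chr7:102557921-102565486 and had 195.64, 146.41 and 185.61 TPM (175.9 ± 26.0), lowest in replicate 2. Trim30d had 171.1, 148.83 and 160.14 TPM. Trim25, at chr11:88999376-89020293, encodes a ligase that helps activate the RNA sensor RIG-I and is a cofactor of the antiviral protein ZAP. It had 158.01, 142.22 and 138.37 TPM (146.2 ± 10.4). Trim21, Trim30d and Trim25 could not be ordered by more than their spread: Trim21 lay 0.26 ± 0.20 above Trim25 on the log2 scale, under 2 SD, although without replicate 2 this pair passed the rule.

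Trim26, a PRY-SPRY ligase in the major histocompatibility region at chr17:36837134-36859398, stood at 109.58, 103.22 and 110.75 TPM (107.8 ± 4.05). Trim14, at chr4:46493781-46536141, has no RING domain and serves as an adaptor of mitochondrial antiviral signalling. It stood at 88.11, 117.02 and 112.03 TPM. Trim26 and Trim14 overlapped, whereas Trim25 was above Trim26 in all libraries by 0.44 ± 0.11 (log2). An opposite-strand gene, Nans, shares 1356 exonic bases with Trim14 and had 6.93, 10.32 and 6.6 TPM. Whether counting used strand is not stated in the sources used here.

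Trim12a (71.93, 68.83 and 80.23 TPM), Trim34a (47.13, 58.24 and 64.39 TPM), Trim35 (47.22, 52.42 and 36.95 TPM) and Trim12c (52, 39.4 and 43.65 TPM) completed the 12 highest together with Trim30b, described below. Trim12a and Trim12c are mouse relatives of TRIM5, which in primates recognises retroviral capsids. Over the 32 detected members taken in order of level, 8 of 31 neighbouring pairs were apart by the rule used here, the same sign in all 3 libraries and a mean log2 difference over 2 SD. These were steps below Trim30a, Trim30c, Trim25, Trim14, Trim12a, Trim41, Trim33 and Trim65. Within the stretches between these steps, 22 of 69 pairs were apart by the same rule, among them Trim34a above Trim41 by 1.19 ± 0.26 and Trim39 above Trim65 by 0.84 ± 0.11 (log2).

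Levels followed the domain groups unevenly. The PRY-SPRY subfamily (C-IV) had 21 of 36 members detected and a summed level of 1614 ± 78.6 TPM, against a family total of 1862 ± 79.4 TPM. In the subfamily with no domain after the coiled coil, 2 of 6 were detected: Trim56, a ligase of cytosolic DNA sensing, at 25.21, 27.19 and 33.28 TPM and Trim8, which acts on cytokine and TAK1 signalling, at 19.23, 11.98 and 14.95 TPM. None of the 3 muscle RING finger genes of subfamily C-II and not the single C-III member, Trim42, had a count. The 5 members without a RING domain had 2 detected, Trim14 and Trim44, the second at 10.85, 12.43 and 13.56 TPM.

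Lower PRY-SPRY genes included Trim27, a nuclear repressor fused to the kinase RET in some tumours, at 13.73, 17.05 and 12.56 TPM. Trim11 had 7.5, 7.21 and 8.91 TPM, and Trim39 had 4.49, 4.27 and 5.02 TPM. Trim68, on chromosome 7 outside the cluster described below, was close to the detection threshold at 1.2, 1.4 and 1.47 TPM. Of 2 single-member subfamilies, Trim23, which carries an ARF-like GTPase domain, was detected at 3.49, 3.46 and 2.43 TPM, and Trim37, whose human gene is mutated in mulibrey nanism, missed the threshold in replicate 1 alone at 0.91, 1.31 and 1.11 TPM.

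The PHD-bromodomain subfamily holds transcriptional cofactors. Trim28, the corepressor that KRAB zinc finger proteins bring to endogenous retroviruses, lies at chr7:12999114-13031035 and had 32.31, 36.85 and 36.21 TPM. Trim33, a regulator of Smad4, had 7.57, 6.27 and 6.96 TPM. Trim24, a nuclear receptor cofactor, had 0.91, 1.64 and 0.93 TPM and passed 1 TPM in replicate 2 alone. Trim28 was above Trim33 by 2.33 ± 0.23 and above Trim24 by 4.85 ± 0.39 (log2), and Trim24 minus Trim33 was -2.52 ± 0.57. The 4th gene of this group, Trim66, known from spermatids, was at 0.01 TPM in each library.

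Among NHL-repeat members, Trim3 had 12.78, 9.79 and 12.66 TPM and lay 1.91 ± 0.31 (log2) above Trim32, a ligase mutated in a limb-girdle muscular dystrophy, at 2.67, 3.16 and 3.28 TPM. Trim2, a neurofilament ligase, had 0.03, 0.09 and 0.09 TPM in the gene table. Of the 2 members anchored in membranes, Trim13 of the endoplasmic reticulum had 17.4, 10.41 and 12.12 TPM and Trim59 had 0.92, 0.67 and 1.07 TPM. Trim36, a microtubule-binding ligase, was the detected gene of subfamily C-I, at 11.96, 7.93 and 6.06 TPM.

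**Figure D2:**
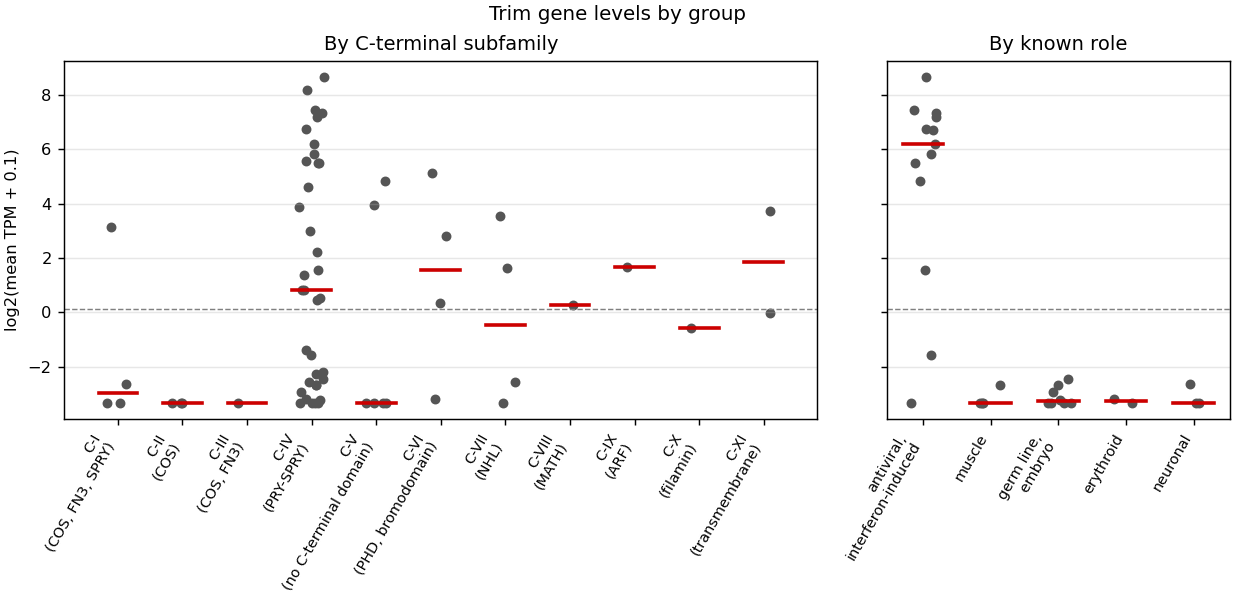
log2(mean TPM + 0.1) of each Trim gene (points, 1 per gene, spread sideways only for visibility) by C-terminal subfamily and by known role, with the median of each group as a red bar. The dashed line is at 1 TPM. The median of the antiviral group is 73.7 TPM, and no gene of the muscle, germ line, erythroid or neuronal groups reaches the line.

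Sorted by known role, the 13 genes listed as antiviral or interferon-induced had 11 detected, a median of 73.7 TPM and a summed level of 1323.74, 1240.86 and 1347.95 TPM. This list was drawn up with earlier results of these libraries known, so its level is a description. Its 2 undetected genes differed from each other. Trim34b had a few counts in each library (0.26, 0.21 and 0.25 TPM). Trim38, described in human cells as a brake on TAB2 and on Toll-like receptor signalling, had none, where 3 counts would have given at most 0.125 TPM.

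None of the 4 muscle genes was detected: Trim54, Trim55 and Trim63, whose products work at the sarcomere, had no count and Trim72, a membrane repair gene, had 0, 0.11 and 0.06 TPM. None of 8 germ line and embryo genes (among them Trim71, known from embryonic stem cells), 2 erythroid genes (Trim10 and Trim58) or 3 neuronal genes (Trim9, Trim46 and Trim67) was detected either. Markers of these tissues were near the same floor: 0 of 6 skeletal muscle and 0 of 6 erythroid markers were detected, and 1 of 5 germ line and 1 of 5 neuron markers, Ddx4 and Syn1, passed 1 TPM. The 15 members without a count were Trim9, Trim10, Trim31, Trim38, Trim40, Trim42, Trim50, Trim52, Trim54, Trim55, Trim60, Trim61, Trim63, Trim67 and Trim71. A level equal to 3 counts would have been 0.0191 to 0.199 TPM in these genes, so lower levels were not detectable at this depth.

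Much of the family's RNA came from 1 region of chromosome 7. There, 10 members lie within chr7:104218793-104507849 (mm10), a span of 289 kb, and 9 were detected. Their summed level was 1072.27, 1020.03 and 1144.92 TPM, or 57.9 ± 1.13% of the family's TPM from 10 of 68 genes. Of the 12 highest members 8 were on chromosome 7 and 7 in this cluster. By contrast, none of the 6 members on chromosome 9 or the 4 on chromosome 8 was detected. In the stretch chr17:36258873-36910214, 2 of 6 members were detected, Trim26 and Trim39, and Trim26 lay 4.53 ± 0.08 (log2) above Trim39.

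**Figure D3:**
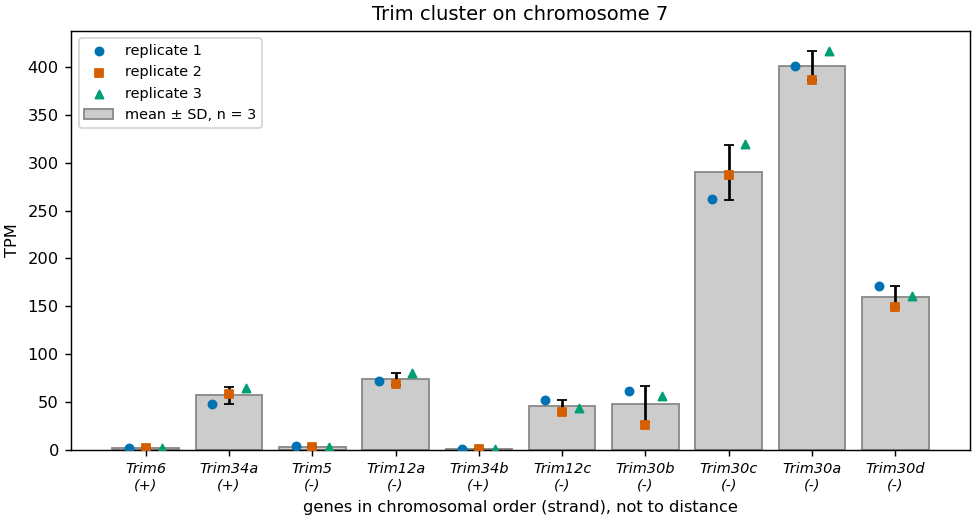
TPM of the 10 chromosome 7 cluster genes, drawn in chromosomal order with their strand. Grey bars are means from 0 with SD (n = 3) and symbols are the libraries. The 4 Trim30 genes stand at the right end, where Trim30a averages 401.6 TPM and Trim30b 47.6 TPM.

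Neighbours and close relatives within the cluster differed widely in level. Trim30a was above Trim30d by 1.33 ± 0.09 and above Trim30b by 3.17 ± 0.63 on the log2 scale, with 3 of 3 libraries on the same side. Trim34a lay 7.37 ± 0.29 above Trim34b. Trim6, next to Trim34a, had 1.89, 1.78 and 1.39 TPM, and the difference Trim6 minus Trim34a was -4.99 ± 0.43. Trim5, with 3.3, 2.67 and 2.55 TPM, gave -3.94 ± 0.11 against Trim12c although both promoter windows hold the core shown above, while Trim12a was 0.72 ± 0.22 above Trim12c.

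The split of reads between these relatives depends on shared sequence. Of the distinct stretches of 31 bases in its transcripts, Trim5 shared 52.9% with other genes, Trim34a 48.7% and Trim12c 47.7%. Trim34b shared 69.0% with Trim34a. Levels of these 4 genes are therefore uncertain as single values. The Trim30 genes were more distinct, with 11.7% shared in Trim30a, 11.9% in Trim30d, 5.69% in Trim30c and 2.60% in Trim30b. Trim13 shared 28.7%, with Gm9359 as its closest match. An opposite-strand gene, Gm47248, overlaps 609 exonic bases of Trim34a and had 18.81, 22.52 and 16.58 TPM.

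Of the 20 pairs of relatives compared in all, 17 were apart. Besides those given, Trim41 was above Trim7 by 7.21 ± 0.37, Trim11 above Trim17 by 4.38 ± 0.25, Trim13 above Trim59 by 3.75 ± 0.36, Trim14 above Trim16 by 8.48 ± 0.86 and Trim3 above Trim2 by 6.13 ± 0.47 (log2 of TPM + 0.1, n = 3). In the second quantification Trim3 minus Trim2 was 0.42, 5.13 and 5.68 in replicates 1, 2 and 3 (3.74 ± 2.89), and this pair was no longer apart. Trim17 shares 708 same-strand exonic bases with the histone gene Hist3h2a, so its 0.23, 0.33 and 0.29 TPM are uncertain. The pairs that were not apart were Trim21 with Trim25, Trim10 with Trim58, and Trim55 with Trim63, and the last 2 pairs had at most 1 count in any library.

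Most Trim genes with enough reads differed between the 3 libraries by more than counting error, as did most genes tested. A chi-square test on expected counts with edgeR's TMM library sizes, adjusted by Benjamini-Hochberg over the 12414 genes whose mean count reached 10, called 27 of 39 testable members, beside 70.9% of all genes tested. The other 29 members were too low to test. Without replicate 2 it called 20 of 39 members, beside 41.9% of all genes tested. The differences were small in size: 3 of 39 members varied over 2-fold in TPM (7.69%), beside 18.5% of all genes tested. The median coefficient of variation was 14.2% for the 31 members with a mean count of at least 100 and 14.9% for all 9075 such genes.

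**Figure D4:**
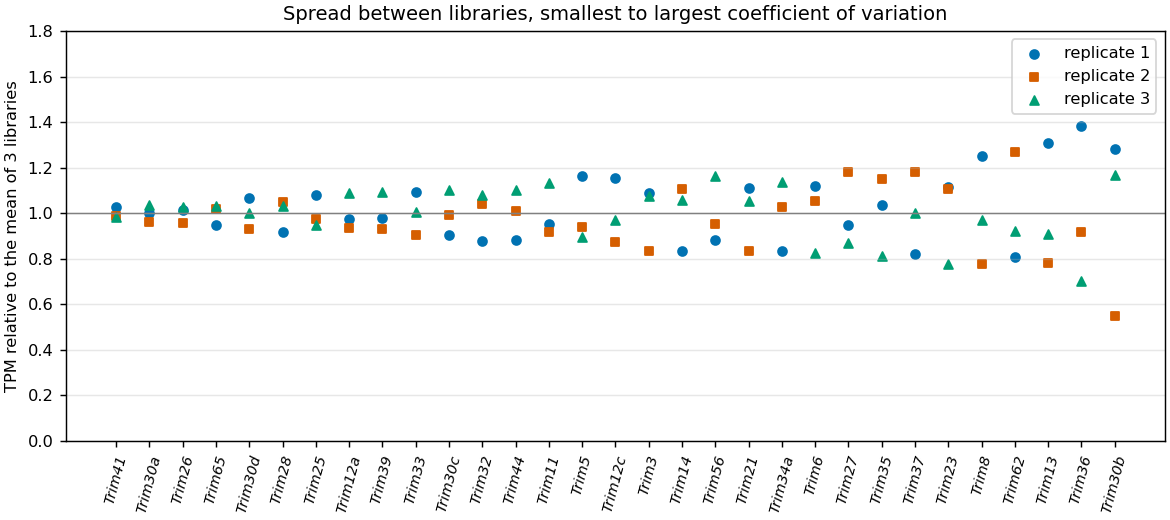
TPM in each library divided by the gene's mean over the 3 libraries, for the 31 Trim genes whose mean count reached 100, ordered from the smallest coefficient of variation (Trim41, 2.46%) to the largest (Trim30b, 39.4%). Points near 1 mean equal levels, and the lowest point is Trim30b in replicate 2.

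The steadiest members were Trim41 at 25.26, 24.26 and 24.17 TPM (coefficient of variation 2.46%), Trim30a (3.75%), Trim26 (3.76%), Trim65 at 2.39, 2.57 and 2.6 TPM (4.51%) and Trim30d (6.96%). Trim28 was close to them and was not called (adjusted p = 0.876, chi-square test over all genes with edgeR's TMM sizes). This ranking belongs to the first quantification: in the second, 1 of the 5 was again among the 5 steadiest, and the coefficient of variation was 19.2% for Trim41, 11.1% for Trim30a, 16.9% for Trim65, 7.74% for Trim30d and 6.41% for Trim26. The second quantification shifted the libraries unequally. Its median log2 ratio to the first was -0.385, -0.080 and -0.235 in replicates 1, 2 and 3, over protein-coding genes at a mean of at least 1 TPM. The coefficients of variation there include this shift, and its part in them was not tested. Without replicate 2, 3 of the 5 were among the 5 steadiest in the first quantification.

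Trim30b varied most. It had 60.99, 26.14 and 55.68 TPM, so replicate 2 was well below the others (2.33-fold range, adjusted p = 4.46e-293 in the same edgeR-scaled chi-square test). The neutrophil markers were highest in that library, and their part in this difference was not tested. Without replicate 2 the range was 1.10-fold and the coefficient of variation 6.44%, and Trim36 was then the most variable at 46.3%. In the second quantification the range of Trim30b over all libraries was 1.87-fold. Trim30a and Trim30d were also lowest in replicate 2 in the first quantification, but within 1.15-fold over the libraries, and Trim30c was in the middle of its range there. The second quantification instead put Trim30a (325, 405 and 384 TPM) and Trim30d (133, 154 and 147 TPM) highest in replicate 2. Trim30c, at 222, 321 and 320 TPM, was also highest there. Next in order over all 3 libraries came Trim36 (34.9%) and Trim13 (27.4%, and 15.3% in the second quantification), both highest in replicate 1, then Trim62 at 1.04, 1.64 and 1.19 TPM (24.2%, and 9.51% without replicate 2) and Trim8 (23.7%, and 11.0% in the second quantification). The 2 further members over 2-fold, Trim16 (0.11, 0.1 and 0.51 TPM) and Trim2, rested on 4 to 20 counts a library and neither was called by the chi-square test.

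In the first quantification the highest library among the 39 testable members was replicate 1 for 15, replicate 2 for 10 and replicate 3 for 14. Over all genes tested the shares were 30.7%, 45.2% and 24.2% in that order. The members' own shares were 38.5%, 25.6% and 35.9%. Of the 12 antiviral genes with counts, 6 were highest in replicate 1, 5 in replicate 3 and 1, Trim14, in replicate 2. This order depended on the quantification. In the second, Trim5, Trim14, Trim25, Trim26, Trim30a, Trim30d and Trim34a were highest in replicate 2. There Trim12c was highest in replicate 1, and Trim12a, Trim21, Trim34b and Trim56 in replicate 3.

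Transcript estimates placed the RNA of most members mainly on protein-coding transcripts, as for protein-coding genes in general. Of the 34 members with a mean of at least 1 TPM, 30 had the same dominant transcript in all 3 libraries (88.2%), beside 86.4% of protein-coding genes at that level. On average 98.7% of a member's TPM fell on protein-coding transcripts at the median, against 96.5% for protein-coding genes, and 23 members were above 90%. In the second quantification these medians were 93.9% for members and 93.7% for protein-coding genes. Trim30a placed 98.4 ± 1.36% on coding transcripts, almost all of it on Trim30a-201.

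**Figure D5:**
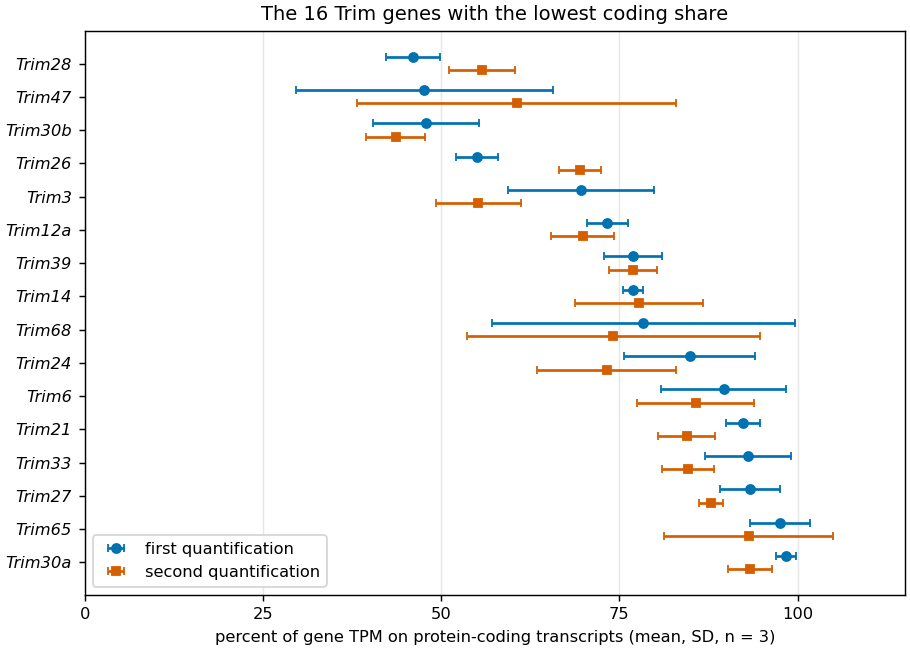
Percent of the gene's TPM assigned to protein-coding transcripts (mean and SD, n = 3) for the 16 Trim genes with the lowest share, in the first quantification (circles) and the second (squares). Trim28, Trim47 and Trim30b lie below 50% in the first, and Trim26 at 55.1%.

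In 3 of 34 members the mean share on coding transcripts was under 50% (6.20% of protein-coding genes were). Only 1 of them, Trim30b, was also under 50% in the second quantification. Trim28 had 46.0 ± 3.77%, and the 565-base retained-intron transcript Trim28-203 took 27.5, 25.73 and 27.2% of its TPM. The second quantification gave that short transcript 2.94, 0 and 0 TPM, and a coding share of 55.7 ± 4.63% for the gene. Trim30b had 47.9 ± 7.47%, with the retained-intron transcript Trim30b-202 dominant at 37.92, 52.84 and 46.22%. Its coding share was 55.2, 40.3 and 48.2% in the 3 libraries, with a mean of 51.7% without replicate 2. The coding Trim30b-205 and the retained-intron Trim30b-206 are both 2771 bases long and had equal TPM in each library. Each took 4.74% of the gene's TPM on average, so the split between them, and the side of 50% on which Trim30b falls, is uncertain. Trim47, a low gene at 2.07, 1.56 and 1.34 TPM, had 47.6 ± 18.0% and a different leading transcript in each library. Its coding share was 27.1, 55.4 and 60.4%, with a mean of 57.9% without replicate 1 and of 60.6 ± 22.4% in the second quantification. It shares 225 same-strand exonic bases with Trim65, so its split is uncertain.

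Trim26 placed 55.1 ± 2.96% on coding transcripts. Its leading transcript, Trim26-209, is annotated as a processed transcript without a coding frame and took 32.75, 39.8 and 40.53% of the TPM. In the second quantification the coding Trim26-201 led instead, at 22.2, 33.6 and 28.8 TPM against 18.5, 19.8 and 21.2 TPM for Trim26-209. The members without a shared dominant transcript were Trim39, Trim32, Trim65 and Trim47. In Trim39 the coding transcripts Trim39-201 and Trim39-203 held 38.55 and 33.66% in replicate 1, 40.8 and 34.33% in replicate 2, and 9.4 and 69.9% in replicate 3.

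The second quantification used the same libraries and is not independent of the first. None of the 34 members differed over 1.5-fold in mean TPM between the 2, beside 3.13% of protein-coding genes at that level. The ratio of second to first was lowest in Trim28 (0.686) and highest in Trim24 (1.05), with a median of 0.876 for members and 0.857 for protein-coding genes. Below 1 TPM some members changed. Trim2 had 8.45, 0.246 and 0.164 TPM in the second quantification, nearly all of the first value on the retained-intron transcript Trim2-212. Trim52, with no count in the gene table, had 0.561, 0.550 and 1.12 TPM there.

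Tripartite motif genes under other symbols, and the genes listed as working with the Trim ligases, were all detected except Mid2. Of 4 tripartite motif genes that carry other symbols 3 were detected: Pml, the nuclear body gene, at 136.78, 129.62 and 140.3 TPM, the microtubule-associated Mid1 at 113.58, 90.48 and 85.02 TPM, and Mefv, which encodes the inflammasome protein pyrin, at 56.61, 58.04 and 36.18 TPM. Mid2 had 1 count in all. All 7 genes listed for the RIG-I and ZAP pathway of Trim25 were detected and were called as varying between libraries, beside 70.9% of all genes tested. The RNA sensor genes Ddx58 and Ifih1 led them, Ddx58 (RIG-I) at 371.5, 363.93 and 387.71 TPM and Ifih1 at 373.32, 381.42 and 366.19 TPM. The adaptor gene Mavs was lowest at 7.89, 10.65 and 9.44 TPM.

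The 7 listed partners of Trim28 were all detected, with a median of 10.3 TPM, and 5 were called as varying, a share near the 70.9% of all genes tested. Among them Setdb1, the histone methyltransferase, had 7.31, 9.83 and 7.5 TPM and Atf7ip, which stabilises it, had 7.75, 6.53 and 16.49 TPM, highest in replicate 3. All 15 genes listed for ubiquitin and its E1 and E2 enzymes were detected and all 15 were called as varying, beside the same 70.9%. All 15 had a mean count of at least 100, where 80.1% of genes were called. Calls against counting error become more frequent as counts rise. They reached 1373 ± 178 TPM in the polyubiquitin gene Ubb and 466 ± 32.7 TPM in the E2 gene Ube2d3. Ube2n and Ube2v1, which together build lysine-63-linked chains, stood at 124 ± 14.5 and 136 ± 6.55 TPM.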

How the data were processed

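Expected counts and TPM per gene, TPM per transcript and each transcript's percent of its gene's TPM were made by the authors from poly(A) RNA sequencing, on mm10 with the GENCODE M21 annotation per the readme deposited with each sample. A second deposited table gives estimated counts and TPM per transcript, summed here per gene. Which programs were used is not given in the sources used here. Expected counts were rounded to whole numbers and tested by chi-square (2 degrees of freedom). The test was against library sizes scaled by TMM (edgeR 4.0.16 in R 4.3.3). Benjamini-Hochberg adjustment covered all genes whose mean count reached 10. This asks only whether libraries differ beyond counting error; with 1 group nothing was contrasted. Log values are log2(TPM + 0.1), which understates differences of low genes. Pairs were called apart by a rule and not by a p-value. Shared sequence was counted as 31-base stretches of the reference transcripts. DESeq2 1.42.0 size factors, other thresholds, the second quantification and leaving out each library were tried; coding shares, coefficients of variation and single pairs were recomputed under the last 2 after seeing the data. The members, lists and pairs were chosen with earlier results of these data known. The genes named are the 12 highest, both genes of each pair, the 5 most and 5 least variable among those whose mean count reached 100, the chromosome 7 genes and every member without a count; other genes that are named, such as those leading a list or lacking a shared transcript, were chosen after their values were seen. Promoter sequences are from RefSeq. Protein sequences were not used here.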

Additional observations from a re-analysis of the deposited data

How the results depend on the processing

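No paired analysis was possible because all libraries belong to 1 group. The median log2 level of 0.13 became 1.00 with a pseudocount of 1, 0.0031 with 0.01, 1.56 over members with any count and 0.26 in the second quantification, and ranged from 0.057 to 0.173 when each library was left out. The count of members over 2-fold between libraries, 3 as reported, was 7 with any count in each library, 1 with a mean count of at least 100, 5 in the second quantification and from 1 to 2 when each library was left out. The count of members with quantifications that differ, 0 as reported, was 3 at a lower fold threshold and from 0 to 1 when each library was left out. The number detected ran from 23 at 5 TPM to 36 at 0.5 TPM, members varying from 20 to 30, shared dominant transcripts from 23 to 31 and pairs apart from 17 to 18. Of the 17 pairs, 16 were apart in the second quantification, where Trim3 with Trim2 was lost and Trim55 with Trim63 was gained, and 17 were apart without each library in turn. As alternatives chosen after seeing the data, the count of members under 50% coding, 3 as reported, was 1 in the second quantification and 2 to 3 when each library was left out. Of 52 named genes, 22 moved by more than 1 SD in the second quantification and 31 were lower there. Depth limits genes below about 0.2 TPM, and the lack of an unstimulated library limits every level to a description.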
